A study of Mus musculus with 20 samples.

Results

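The genes examined here hold cells out of the division cycle or release them into it: the pocket proteins Rb1, Rbl1 and Rbl2, the CDK inhibitors Cdkn1b, Cdkn1c, Cdkn2c and Cdkn2d, the ubiquitin ligase subunit Skp2, and the DREAM subunits Lin9 and Lin54. They are 10 of the 18193 genes on the array, taken by name as the members of these families and not by their values, and 23 probe sets measure them. Expression was measured in mouse lenses in 4 groups of 5 arrays. Control lenses were E2F2-/-, taken before birth at E17.5 or as newborns at P0. Knockout lenses were Cry-Cre E2F1-/- E2F2-/- E2F3f/f at the same stages, so that the E2F2 null alleles were common to all 20 arrays and the Cre was present in the knockout groups alone. The labels do not give the promoter fragment of the transgene, the cells in which it was active, the strain or the litters. Each array held total RNA of the 2 lenses of 1 mouse, and the design text gives as its aim the key events behind the cellular collapse of such lenses in newborn mice. P-values measure the spread between these 5 mice per group, whose litters are not known here.

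Pocket proteins bind E2F transcription factors and recruit repressors to the promoters that E2F occupies. Cyclin-dependent kinases (CDKs) phosphorylate the pocket proteins and release the E2F factors; CDK inhibitors of the Cip/Kip family (p27 and p57) and of the INK4 family (p18 and p19) block those kinases. Skp2 marks p27 for destruction. The MuvB core, which contains Lin9 and Lin54, joins p107 or p130 and a repressive E2F to form DREAM, the complex that silences cell cycle genes in resting cells. In the lens, epithelial cells at the front divide, and cells that pass the equator leave the cycle and elongate into fibres, a step for which pRB, p27 and p57 are known regulators.

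The promoter sequences of Rbl1 and Skp2 are shown because both genes fell between stages in both genotypes and carry motifs of the E2F and DREAM pathway. The windows are the 250 bases before an annotated start, from RefSeq on GRCm38.p6, read on the strand of the gene, and 7 of the 10 genes had such a window. Capitals mark matches on either strand to TTTNNCGC (N is any base), a loose form of the E2F site, in Rbl1, and to TTTGAA, the cell cycle homology region (CHR) that Lin54 binds, in Skp2.
Rbl1, chr2:157204535-157204784, minus strand: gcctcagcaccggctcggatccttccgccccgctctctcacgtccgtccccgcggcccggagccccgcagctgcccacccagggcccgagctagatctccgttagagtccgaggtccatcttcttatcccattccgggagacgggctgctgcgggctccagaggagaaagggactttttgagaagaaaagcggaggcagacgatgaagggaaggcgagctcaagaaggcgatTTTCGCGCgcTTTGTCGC
Skp2, outer start, chr15:9155426-9155675, minus strand: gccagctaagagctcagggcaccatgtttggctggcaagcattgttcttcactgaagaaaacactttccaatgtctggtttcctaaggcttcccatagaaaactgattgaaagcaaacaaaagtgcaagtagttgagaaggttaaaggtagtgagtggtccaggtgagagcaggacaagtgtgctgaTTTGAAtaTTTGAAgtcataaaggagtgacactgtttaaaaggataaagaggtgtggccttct
Skp2, inner start, chr15:9140455-9140704, minus strand: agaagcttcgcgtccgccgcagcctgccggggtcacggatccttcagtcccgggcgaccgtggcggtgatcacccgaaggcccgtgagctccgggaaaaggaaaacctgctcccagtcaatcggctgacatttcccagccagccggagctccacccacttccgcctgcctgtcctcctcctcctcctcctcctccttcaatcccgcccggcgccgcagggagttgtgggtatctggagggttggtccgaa

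The Rbl1 window held 2 E2F-type matches, TTTCGCGC from 18 to 11 bases and TTTGTCGC from 8 to 1 bases before the start. Of all 32851 promoter windows of this length, 4.28% held TTTNNCGC, and 1.13% held the narrower TTTNGCGC, which overlaps the first of these matches. Rbl1 was the only 1 of the 7 genes with a match to either. The CHR letters were in 16% of all windows. The 7 genes had 10 windows, as some have more than 1 start, so a share of genes cannot be set beside that share of windows. The letters were in 1 window each of Skp2, Lin54 and Rbl2. In Skp2 the matches lay from 63 to 58 and from 55 to 50 bases before the outer start. The inner Skp2 start and the outer Lin54 start had none. No match to any of these motifs lay in the windows of Cdkn1b, Cdkn2c or Cdkn2d, which says only that these letters are not in these windows.

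Values are the log2 expression values as deposited, and array medians lay between 5.05 and 5.25. Lens fibre markers were among the brightest signals in every group (Cryaa, a crystallin, at 14.78 to 14.89 on all arrays), and the labelled cell type, epithelial cells, was represented by Foxe3 (8.21 to 8.77 in E17.5 controls) and Pax6 (9.78 to 10.33). E2f1 read 7.15 to 7.24 in control and 7.55 to 7.95 in knockout lenses at E17.5, and 7.15 to 7.52 and 7.62 to 7.91 at P0; the ranges of E2f2 and E2f3 overlapped between genotypes at both stages. The position of these probes relative to the deleted exons is unknown here, so their values do not check the labels. Knockout E17.5 arrays 24 and 27 were closer to the E17.5 controls (mean r 0.990 and 0.993 over all probe sets) than to the other knockout arrays (0.985 and 0.988). The mean of 15 retina markers was 6.41 to 7.57 on knockout and 4.68 to 6.20 on control arrays at P0, with 12 of 14 tested markers higher, and that of 10 pigment cell markers was 7.22 to 7.87 against 6.31 to 6.74 (two-sided exact permutation p = 0.00794 for each mean, the smallest that 5 against 5 arrays allow). In P0 controls 5 of the 15 retina markers lay below the array median; Nrl, a rod factor, read 3.99 to 5.59 there and 5.73 to 6.39 in P0 knockouts. The mean of 8 macrophage markers was 5.87 to 6.62 on knockout and 5.31 to 6.16 on control arrays at P0 (exact permutation p = 0.0397), and that of 9 lens fibre markers 13.95 to 14.01 against 14.02 to 14.06 (exact permutation p = 0.00794). The fibre difference was small (-0.06), and 1 of the 9 fibre markers was called lower and 0 higher. The difference between the 5′ and 3′ Gapdh control probe sets, a sign of RNA quality, was 0.20 higher in knockout lenses at E17.5 and 0.18 higher at P0 (exact permutation p = 0.00794 at each stage). The part of these differences in the results was not tested, apart from fits with the retina or pigment cell marker mean as a covariate.

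Of the 9 genes tested, 0 were called between genotypes at E17.5, and 4 were called at P0: Rbl1 was higher, and Rb1, Cdkn1b and Cdkn1c were lower in knockout lenses. A gene was called at a Benjamini-Hochberg adjusted p below 0.05 over 11859 tested genes with limma; Lin9 lay below the filter on dim genes. At E17.5, 4 of the 9 had an unadjusted p below 0.05, 0 were called in a fit of all 20 arrays, and the background was 2.89% of all tested genes called. At P0 the background was 39.6% (20.2% higher and 19.4% lower), so that 4 of 9 genes is a share close to that of the transcriptome. Between stages, 4 of 9 were called in control lenses (background 37.4%) and 4 of 9 in knockout lenses (background 14.6%). The difference of the genotype effects between stages was called for 0 of 9 genes (background 0.177%); 1 of them, Cdkn2c, had an unadjusted p below 0.05, and 0 were called with array weights by group. The median change of the 9 genes at P0 was 0.12 beside -0.01 over all tested genes, and at E17.5 it was -0.07 beside -0.03. In these bulk lens samples, fewer cells of a type and less RNA per cell cannot be told apart.

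**Figure D1:**
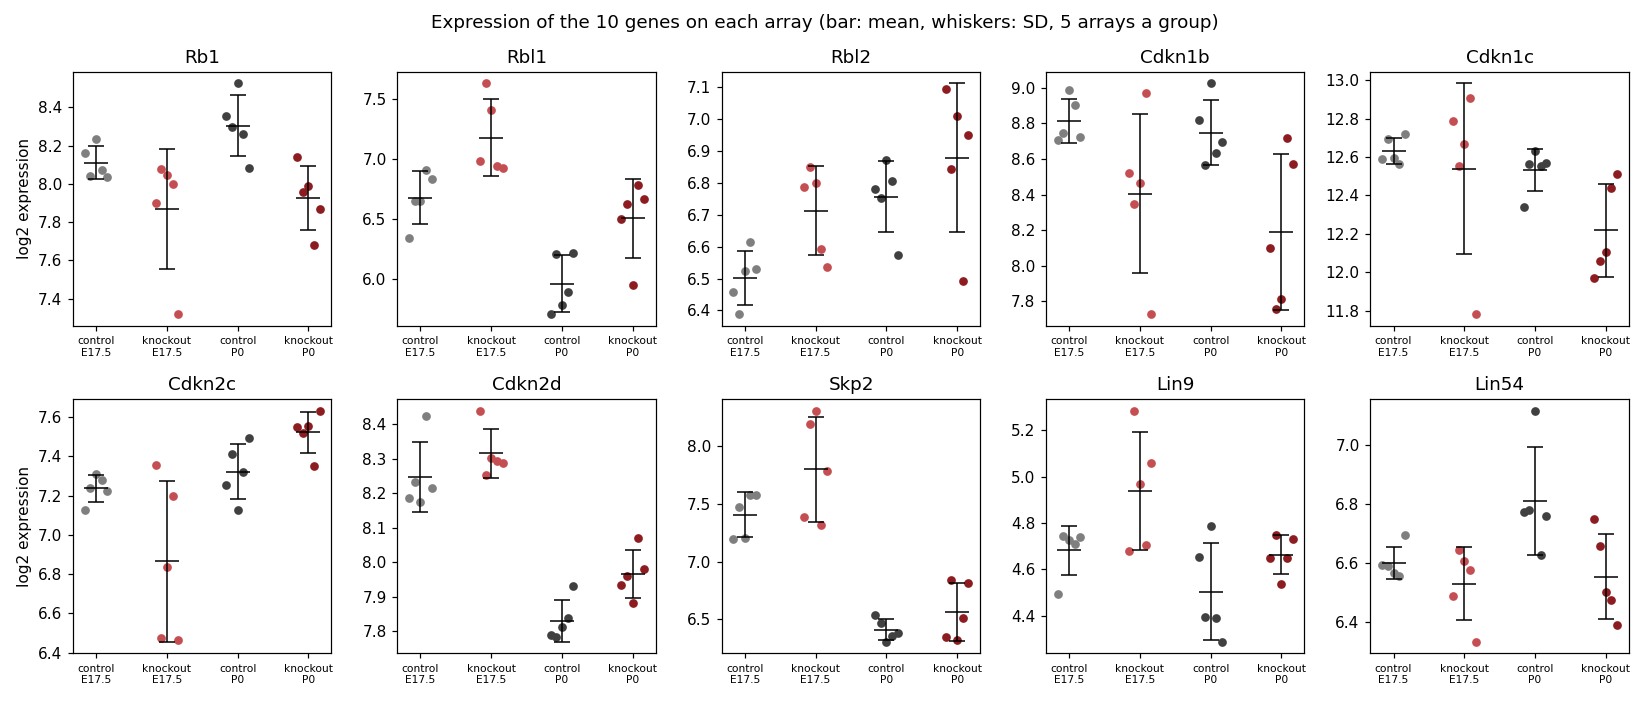
Log2 expression (vertical axis, a scale of its own in each panel) of the 10 genes on each of the 20 arrays, by genotype and stage; points are arrays, bars means and whiskers SDs of 5 arrays. Skp2 and Cdkn2d arrays at P0 all lie below the E17.5 arrays, and the knockout E17.5 arrays are spread more widely than the controls for most genes.

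Rb1 (chr14:73192858-73325951; all gene positions are on GRCm38.p6) encodes pRB, the pocket protein that binds the activating E2F factors. In the order of their array numbers (10, 11, 12, 13 and 15), control lenses at E17.5 read 8.16, 8.04, 8.24, 8.07 and 8.04, and knockout lenses (24, 25, 26, 27 and 28) read 7.90, 8.08, 8.05, 8.0 and 7.32. At P0, control lenses (1, 5, 6, 7 and 8) read 8.35, 8.30, 8.53, 8.26 and 8.08, and knockout lenses (17, 18, 19, 21 and 22) read 8.14, 7.96, 7.99, 7.68 and 7.87. Every knockout array lay below the control mean of its stage, but the groups overlapped at both stages, at P0 only through control array 8 and knockout array 17. At P0 Rb1 fell by 23.0% in knockout lenses, a log2 change of -0.38 ± 0.10 (SE; limma adjusted p = 0.0110, exact permutation p = 0.0159, n = 5 and 5). At E17.5 the change was -0.24 ± 0.13 (limma adjusted p = 0.272), with the lowest value on array 28, and without that array it was -0.10 ± 0.06 (limma adjusted p = 0.294). Between stages it had 0.19 ± 0.08 in control and 0.06 ± 0.15 in knockout lenses, neither called (limma adjusted p = 0.0664 and 0.806), and without control P0 array 8 the former was 0.25 ± 0.07 (limma adjusted p = 0.0155). The order of the means ran from knockout E17.5 (7.87 ± 0.31 SD) over knockout P0 (7.93 ± 0.17) and control E17.5 (8.11 ± 0.09) to control P0 (8.30 ± 0.16), and each group overlapped the next. The call at P0 was lost with the retina markers as a covariate (-0.42 ± 0.17, limma adjusted p = 0.13), with the pigment cell markers as one (-0.84 ± 0.24, limma adjusted p = 0.128), and with the mean of both Rb1 probe sets (-0.19 ± 0.07, limma adjusted p = 0.0522). The second Rb1 probe set was dim (mean 2.71) and was outside the filter.

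Rbl1 (chr2:157145893-157204534) encodes p107, the pocket protein typical of cycling cells and itself a well-known E2F target. Control lenses at E17.5 read 6.34, 6.66, 6.65, 6.91 and 6.84, and knockout lenses 6.98, 7.63, 7.41, 6.94 and 6.93. Its P0 controls read 5.71, 6.21, 5.79, 5.90 and 6.22, and the knockouts 6.50, 6.63, 5.95, 6.79 and 6.67. The knockout arrays lay above all controls at E17.5, as the groups of 9.95% of all tested genes did not overlap there. At P0, 4 of 5 knockout arrays lay above all controls, and array 19 lay at the control mean. The change was 0.50 ± 0.16 at E17.5, which limma did not call (adjusted p = 0.094, exact permutation p = 0.00794), and 0.54 ± 0.16 at P0, which it did (adjusted p = 0.0192, exact permutation p = 0.0238); the P0 value is a 1.46-fold level in knockout. Their difference was 0.04 ± 0.23 with a 95% interval from -0.45 to 0.53. Between E17.5 and P0 Rbl1 fell in both genotypes. It fell by 39.1% in control lenses (log2 change -0.71 ± 0.13, limma adjusted p = 0.00165) and fell by 37.2% in knockout lenses (-0.67 ± 0.18, limma adjusted p = 0.0344), and the stages did not overlap in either. The background for groups that do not overlap was 24.9% between stages in controls and 11.8% in knockouts. The knockout P0 mean (6.51 ± 0.33 SD) was next to the control E17.5 mean (6.68 ± 0.22), with overlap. With the retina covariate the P0 change was 0.53 ± 0.27 (limma adjusted p = 0.231), and with the pigment cell covariate 1.36 ± 0.37 (limma adjusted p = 0.12), so both ended the call. The other 3 Rbl1 probe sets, with means of 3.21 to 3.60, were outside the filter. The fall in knockout lenses lost its call without array 17, 18, 19, 25 or 26 (-0.53 to -0.70, limma adjusted p = 0.0667 to 0.0826) and without arrays 25 and 26 together (-0.45 ± 0.17, limma adjusted p = 0.164).

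Rbl2 (chr8:91070057-91123844) encodes p130, the pocket protein of resting cells and of DREAM, and its 2 probe sets gave different calls between genotypes. On the brighter probe set, control lenses at E17.5 read 6.46, 6.39, 6.52, 6.61 and 6.53, and knockout lenses 6.79, 6.85, 6.80, 6.59 and 6.54. The P0 controls read 6.78, 6.75, 6.87, 6.81 and 6.57, and the knockouts 7.09, 6.85, 7.01, 6.49 and 6.95. The groups overlapped at both stages, and the changes of 0.21 ± 0.08 and 0.12 ± 0.11 were not called (limma adjusted p = 0.136 and 0.395); without array 21 the P0 change was 0.22 (limma adjusted p = 0.0387). On the dimmer probe set the control E17.5 arrays read 5.12, 5.11, 5.45, 5.42 and 5.14 and the knockout arrays 5.88, 6.10, 6.11, 5.62 and 5.48. At P0 that probe set read 5.32, 5.26, 5.50, 5.50 and 5.55 in control and 5.89, 5.92, 6.29, 5.68 and 6.16 in knockout lenses. All 5 knockout arrays lay above all 5 controls at both stages. When every probe set was tested on its own, the changes on the dimmer one of 0.59 ± 0.14 and 0.56 ± 0.11 were called (limma adjusted p = 0.0278 and 0.00284). Between stages the brighter probe set rose in control lenses by 0.26 ± 0.06 (limma adjusted p = 0.00866), a call that the fit of all 20 arrays did not make (limma adjusted p = 0.0735), and the dimmer one had 0.18 ± 0.09 (limma adjusted p = 0.141). The order of the means on the brighter probe set was control E17.5 (6.50 ± 0.09 SD), knockout E17.5 (6.71 ± 0.14), control P0 (6.76 ± 0.11) and knockout P0 (6.88 ± 0.23), each overlapping the next.

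Cdkn1b (chr6:134920401-134925525) encodes p27, which binds cyclin-CDK2 complexes as cells leave the cycle. Control lenses at E17.5 read 8.71, 8.75, 8.99, 8.90 and 8.72, and knockout lenses 8.52, 8.35, 8.46, 8.97 and 7.73. At P0 the controls read 8.82, 8.57, 9.03, 8.64 and 8.70, and the knockouts 8.10, 7.75, 7.81, 8.72 and 8.57. On the brighter probe set shown here, the knockout P0 arrays fell into 3 low ones (17, 18 and 19) and 2 that lay among the controls (21 and 22). At P0 Cdkn1b fell by 32.0% in knockout lenses, or -0.56 ± 0.18 (limma adjusted p = 0.0331, exact permutation p = 0.0556). The dimmer probe set of the gene, tested on its own, had -0.72 ± 0.19 (limma adjusted p = 0.011). On that probe set array 22 (4.78) also lay below all P0 controls (5.116 to 5.635), and only array 21 (5.14) lay among them. At E17.5 the brighter probe set had -0.41 ± 0.18 (limma adjusted p = 0.195), with array 28 lowest and array 27 among the controls. Neither genotype had a call between stages (-0.06 ± 0.09 in control and -0.21 ± 0.24 in knockout lenses, limma adjusted p = 0.596 and 0.567). The means ran from knockout P0 (8.19 ± 0.44 SD) over knockout E17.5 (8.41 ± 0.45) and control P0 (8.75 ± 0.18) to control E17.5 (8.81 ± 0.13), with overlap at each step. The P0 call was lost on leaving out control array 1, 6, 7 or 8 or knockout array 17, 18 or 19 (-0.45 to -0.58, limma adjusted p = 0.0505 to 0.0804). With the retina covariate it was -0.85 ± 0.30 (limma adjusted p = 0.0912), and with the pigment cell covariate its sign turned (0.68 ± 0.34, limma adjusted p = 0.325). These 2 fits cannot separate the markers from genotype at P0, so no conclusion is drawn from the turned sign.

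Cdkn1c (chr7:143458339-143461059) encodes p57, a CDK inhibitor that lens cells make as they leave the cycle, and has 1 probe set. Control lenses at E17.5 read 12.59, 12.69, 12.59, 12.56 and 12.72, and knockout lenses 12.79, 12.55, 12.67, 12.91 and 11.78. Its P0 controls read 12.34, 12.57, 12.63, 12.56 and 12.57, and the knockouts 11.97, 12.06, 12.11, 12.44 and 12.51. The same 3 knockout arrays as on the brighter Cdkn1b probe set (17, 18 and 19) were below all controls, and arrays 21 and 22 were among them. At P0 Cdkn1c fell by 19.6% in knockout lenses, or -0.31 ± 0.11 (limma adjusted p = 0.0399, exact permutation p = 0.0476). At E17.5 the change was -0.09 ± 0.18 (limma adjusted p = 0.767), and without array 28 it was 0.10 ± 0.08 (limma adjusted p = 0.425). Between stages the changes were -0.10 ± 0.06 in control and -0.32 ± 0.20 in knockout lenses, neither called (limma adjusted p = 0.206 and 0.282), though without array 28 the latter was -0.51 ± 0.13 (limma adjusted p = 0.0237). The means ran from knockout P0 (12.22 ± 0.24 SD) over control P0 (12.53 ± 0.11) and knockout E17.5 (12.54 ± 0.44) to control E17.5 (12.63 ± 0.07), each overlapping the next. The P0 call was lost without control array 5, 6, 7 or 8 or knockout array 17, 18 or 19 (-0.25 to -0.31, limma adjusted p = 0.0736 to 0.0932), without the filter (limma adjusted p = 0.0533) and in the fit of all 20 arrays (limma adjusted p = 0.124). It was -0.29 ± 0.19 with the retina covariate (limma adjusted p = 0.344), and 0.37 ± 0.22 with the pigment cell covariate (limma adjusted p = 0.4).

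Cdkn2c (chr4:109660876-109666756) encodes p18, an inhibitor of CDK4 and CDK6. Control lenses at E17.5 read 7.13, 7.24, 7.31, 7.28 and 7.22, and knockout lenses 7.35, 6.48, 6.83, 7.20 and 6.46. The P0 controls read 7.25, 7.41, 7.13, 7.32 and 7.49, and the knockouts 7.55, 7.52, 7.56, 7.35 and 7.63. At E17.5, knockout arrays 25, 26 and 28 lay below all controls while 24 and 27 did not; at P0, 4 of 5 knockout arrays lay above all controls. Neither genotype effect was called: it was -0.37 ± 0.17 at E17.5 (limma adjusted p = 0.190) and 0.20 ± 0.08 at P0 (limma adjusted p = 0.0640). Their difference, 0.57 ± 0.19, had a limma adjusted p of 0.181. Cdkn2c rose by 57.6% between stages in knockout lenses (0.66 ± 0.17, limma adjusted p = 0.0293), and the change in control lenses was 0.09 ± 0.07 (limma adjusted p = 0.344). The means ran from knockout E17.5 (6.87 ± 0.41 SD) over control E17.5 (7.24 ± 0.07) and control P0 (7.32 ± 0.14) to knockout P0 (7.52 ± 0.10), with overlap at each step. The rise lost its call without array 17, 18, 19, 25 or 26 (0.56 to 0.66, limma adjusted p = 0.0656 to 0.0758), without arrays 25 and 26 together (0.52 ± 0.19, limma adjusted p = 0.139) and with the arrays centred on their medians (limma adjusted p = 0.0529). Without control array 8 or knockout array 21 the P0 effect of 0.24 was called (limma adjusted p = 0.0346 and 0.0265). It was also called after quantile normalization (0.21, limma adjusted p = 0.0431) and with the stricter filter (limma adjusted p = 0.0492). With the retina covariate the P0 effect was 0.42 ± 0.11 (limma adjusted p = 0.0427).

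Cdkn2d (chr9:21288459-21291421) encodes p19, the other INK4 inhibitor among the genes examined here. Control lenses at E17.5 read 8.19, 8.23, 8.17, 8.42 and 8.22, and knockout lenses 8.44, 8.25, 8.30, 8.29 and 8.29. At P0 the controls read 7.79, 7.78, 7.81, 7.84 and 7.93, and the knockouts 7.93, 7.96, 7.88, 8.07 and 7.98. Every P0 array lay below every E17.5 array, and the genotypes overlapped at each stage. Between stages Cdkn2d fell by 25.1% in control lenses (-0.42 ± 0.06, limma adjusted p = 0.000321) and fell by 21.5% in knockout lenses (-0.35 ± 0.07, limma adjusted p = 0.0147). The genotype changes were 0.07 ± 0.07 at E17.5 (limma adjusted p = 0.545) and 0.14 ± 0.05 at P0 (limma adjusted p = 0.0684), with an exact permutation p of 0.0159 at P0, where 4 of 5 knockout arrays lay above all controls. Without control array 8 the P0 change was 0.16 (limma adjusted p = 0.0467), and with the stricter filter the change of 0.14 was called (limma adjusted p = 0.0451). The means ran from control P0 (7.83 ± 0.06 SD) over knockout P0 (7.97 ± 0.07) to control E17.5 (8.25 ± 0.10) and knockout E17.5 (8.31 ± 0.07), and only the P0 knockouts and E17.5 controls, in the middle of that order, did not overlap. The fall in knockout lenses lost its call without arrays 25 and 26 (-0.37 ± 0.09, limma adjusted p = 0.0691).

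**Figure D2:**
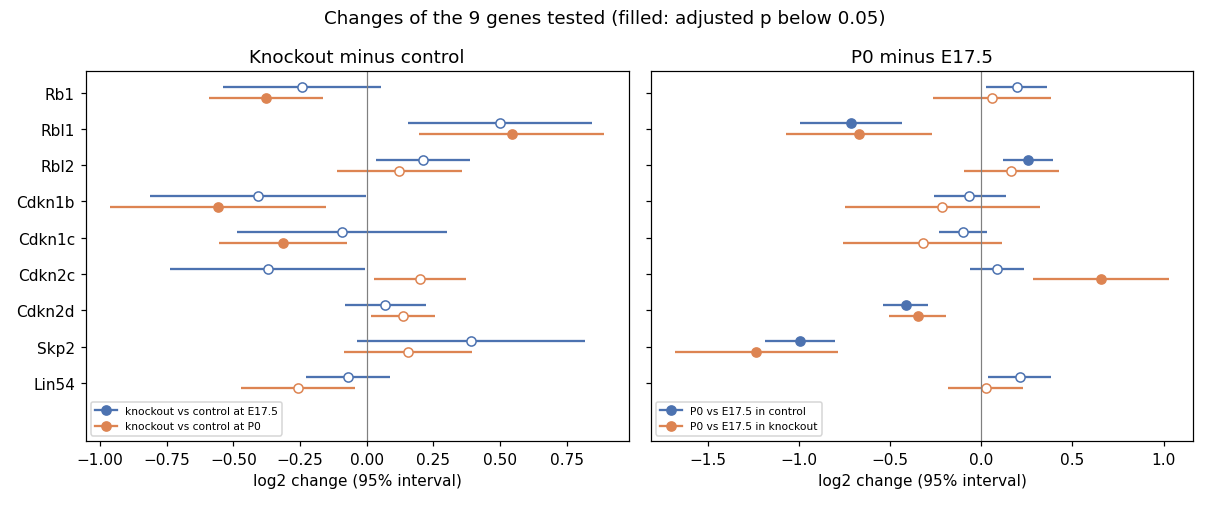
Log2 change (horizontal axis) with its 95% interval for the 9 genes tested, knockout minus control at each stage on the left and P0 minus E17.5 in each genotype on the right; filled points had a limma adjusted p below 0.05. The 4 filled genotype changes are all at P0, and Rbl1, Cdkn2d and Skp2 are filled on the falling side in both genotypes.

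Skp2 (chr15:9111982-9155425), the F-box protein that directs the SCF ubiquitin ligase to p27, had the largest fall between stages among the 9 genes tested, in both genotypes. On the brightest of its 6 probe sets, control lenses at E17.5 read 7.19, 7.47, 7.21, 7.58 and 7.58, and knockout lenses 7.39, 8.19, 8.31, 7.32 and 7.79. At P0 the controls read 6.54, 6.47, 6.31, 6.36 and 6.38, and the knockouts 6.35, 6.84, 6.32, 6.51 and 6.81. Every P0 array lay below every E17.5 array. Between stages Skp2 fell by 49.9% in control lenses (-0.997 ± 0.088, limma adjusted p = 5.69e-05) and fell by 57.5% in knockout lenses (-1.23 ± 0.20, limma adjusted p = 0.00783), where the fall was -0.93 ± 0.17 without arrays 25 and 26 (limma adjusted p = 0.05, just above the threshold before rounding). Of the 6 Skp2 probe sets, 5 fell in each genotype when each was tested on its own, beside 34.5% of all probe sets called in control and 13.3% in knockout lenses. The remaining one, the fifth in brightness, had -0.11 ± 0.09 and -0.26 ± 0.17 (limma adjusted p = 0.384 and 0.301). The means ran from control P0 (6.41 ± 0.09 SD) over knockout P0 (6.57 ± 0.25) to control E17.5 (7.41 ± 0.19) and knockout E17.5 (7.80 ± 0.45), with no overlap between the P0 knockouts and the E17.5 controls.

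Between genotypes the probe sets of Skp2 differed from each other. On the brightest, the changes of 0.39 ± 0.19 at E17.5 and 0.15 ± 0.11 at P0 were not called (limma adjusted p = 0.226 and 0.282). On the dimmest, control lenses at E17.5 read 4.92, 5.26, 5.04, 5.38 and 5.45 and knockout lenses 6.27, 6.68, 6.59, 6.04 and 5.82. At P0 that probe set read 4.56, 4.79, 4.45, 4.43 and 4.81 in control and 4.89, 5.41, 5.23, 5.41 and 5.33 in knockout lenses. All knockout arrays lay above all controls of their stage, and the changes of 1.07 ± 0.17 and 0.65 ± 0.11 were called (limma adjusted p = 0.005 and 0.0016 over probe sets). However, every P0 control read below the median of its array (5.19 to 5.21), as did E17.5 control arrays 10 and 12. This probe set reached the 5 arrays of the filter only by counting knockout arrays, where it was high, so these calls lean on the filter. The other 5 probe sets had changes between 0.18 and 0.46 at the earlier stage and between 0.13 and 0.22 at birth, all positive and none called. Over all 16 probe sets of the 10 genes that passed the filter, 2 were called at E17.5 (the dimmest of Skp2 and the dimmer of Rbl2) and 7 at P0, beside 7.42% and 38.9% of all probe sets. Which transcripts these probe sets detect was not examined. At P0 the groups of 25.9% of all tested genes did not overlap; among the 9 genes on their brightest probe sets there was no such gene.

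**Figure D3:**
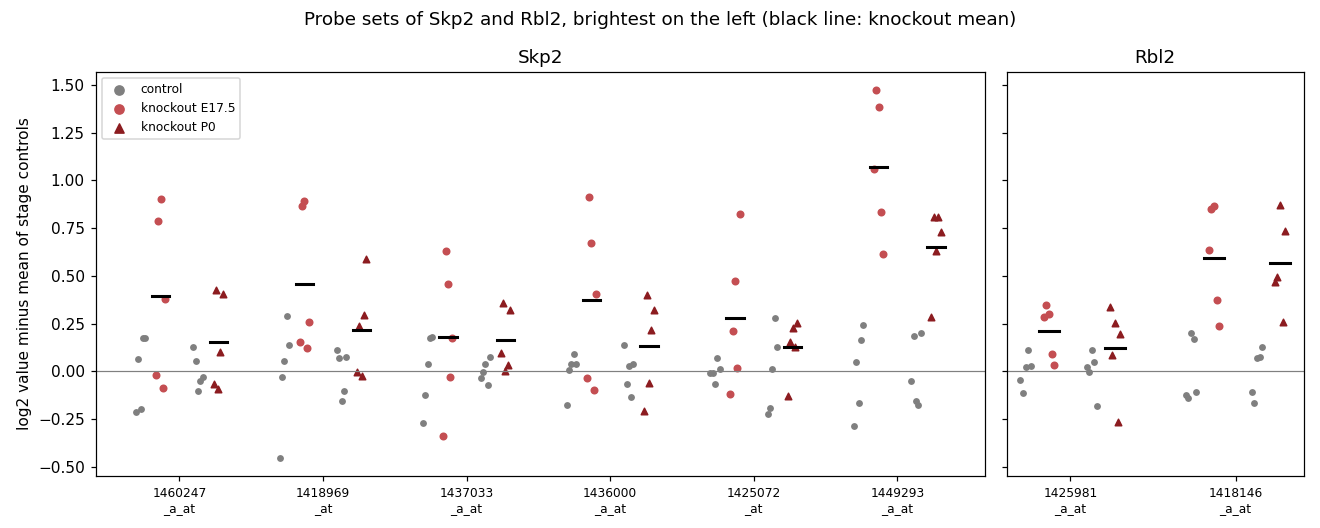
Log2 value of each array minus the mean of the controls of its stage (vertical axis) for the 6 probe sets of Skp2 and the 2 of Rbl2, brightest on the left; grey points are controls, coloured points knockout arrays and black lines their means. The dimmest Skp2 probe set, at 1.07 and 0.65, and the dimmer Rbl2 probe set, at 0.59 and 0.56, have no overlap between genotypes at either stage.

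Lin9 (chr1:180641150-180690687) and Lin54 (chr5:100442033-100500639) belong to the MuvB core, in which Lin54 contacts the CHR. Lin54 read 6.59, 6.59, 6.57, 6.56 and 6.69 in control and 6.49, 6.64, 6.61, 6.58 and 6.33 in knockout lenses at E17.5. At P0 it read 6.77, 6.78, 7.12, 6.63 and 6.76 in control and 6.75, 6.66, 6.50, 6.47 and 6.39 in knockout lenses, where 3 knockout arrays (19, 21 and 22) lay below all controls. Its changes were -0.07 ± 0.07 at E17.5 and -0.26 ± 0.10 at P0 (limma adjusted p = 0.552 and 0.0563), and the P0 change was called without control array 7 or knockout array 17 (-0.30 for each, limma adjusted p = 0.0426 and 0.0378), in the fit of all 20 arrays (limma adjusted p = 0.0274), with the arrays centred on their medians (limma adjusted p = 0.0438) and with the mean of its probe sets (limma adjusted p = 0.012). Between stages it had 0.21 ± 0.08 in control and 0.02 ± 0.09 in knockout lenses (limma adjusted p = 0.0570 and 0.880); without control array 7 the former was 0.26 (limma adjusted p = 0.0290). Its means ran from knockout E17.5 (6.53 ± 0.12 SD) over knockout P0 (6.55 ± 0.14) and control E17.5 (6.60 ± 0.06) to control P0 (6.81 ± 0.18), each overlapping the next. The second Lin54 probe set was dim (mean 3.99) and outside the filter, with 0.21 at E17.5 and -0.23 at P0. The mean of both probe sets had 0.07 at E17.5, with the sign turned. Lin9 (mean 4.70) did not reach the array median on 5 arrays and was outside the filter. In a fit without the filter it had 0.26 ± 0.12 at E17.5 and 0.16 ± 0.10 at P0 (limma adjusted p = 0.207 and 0.255), and neither stage change was called (limma adjusted p = 0.199 in control and 0.117 in knockout lenses). On its brighter probe set its means were 4.68 ± 0.11 (SD) in control and 4.94 ± 0.25 in knockout lenses at E17.5, and 4.5 ± 0.21 and 4.66 ± 0.08 at P0, with overlap throughout (exact permutation p = 0.119 and 0.143). Its dimmer probe set had 0.37 at E17.5 and 0.38 at P0 (exact permutation p = 0.0159 and 0.0556).

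The knockout arrays of a stage were not alike in these genes. The median SD of the 9 genes was 0.09 in control and 0.32 in knockout lenses at E17.5, beside 0.10 and 0.20 over all tested genes, and 0.14 and 0.23 at P0, beside 0.10 and 0.15. At E17.5, array 28 was the lowest in Rb1, Cdkn1b, Cdkn1c, Cdkn2c and Lin54, at -0.79, -1.09, -0.85, -0.77 and -0.27 from the control means, and its lens fibre markers were also the lowest (a median of -0.18 from the controls). Its markers of vessel endothelium, erythroid (red blood) cells and macrophages were the highest of all E17.5 arrays, at medians of 1.27, 0.9 and 0.57 above the controls. Arrays 25 and 26 were the highest in Rbl1, 0.95 and 0.73 above the control mean, and in Skp2, 0.79 and 0.90 above it. Their retina markers stood a median of 1.86 and 1.62 above the controls. So did their pigment cell markers, by 1.22 and 0.69, and their lens epithelium markers, by 0.50 and 0.38. Arrays 24 and 27, whose retina markers stood at -0.37 and 0.07, had Skp2 at -0.02 and -0.09. Among the knockout P0 arrays, array 21 had the highest retina markers (2.5), with Skp2 at 0.10 and Rbl1 at 0.82. Array 22 had the lowest (1.09), with Skp2 at 0.40 and Rbl1 at 0.70. At P0, arrays 17, 18 and 19, low in Cdkn1b and Cdkn1c, had the highest pigment cell markers (1.80, 1.85 and 1.82 above the controls), and arrays 21 and 22 had 0.85 and 1.09. On the dimmer Cdkn1b probe set, array 22 lay below all controls too. Without arrays 24 and 27, 4 of the 9 genes were called at E17.5: Rbl1 (0.64 ± 0.17), Cdkn1b (-0.63 ± 0.16), Cdkn2c (-0.65 ± 0.10) and Skp2 (0.69 ± 0.14, limma adjusted p = 0.0259, 0.0201, 0.00312 and 0.00987). The difference of effects of Cdkn2c was then called too (0.84 ± 0.13, limma adjusted p = 0.0137). In that fit 2953 of all genes were called at E17.5, against 343 with all arrays. These 2 arrays were left out because they were the knockout arrays closest to the controls, a choice that by itself makes the effects larger, so the values are a description and no support for the calls. The part of retinal, pigment, fibre, vessel or blood cell RNA in these values was not tested beyond the retina and pigment cell covariates. At P0 genotype and the retina, pigment cell and fibre marker means, whose groups did not overlap, cannot be told apart.

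**Figure D4:**
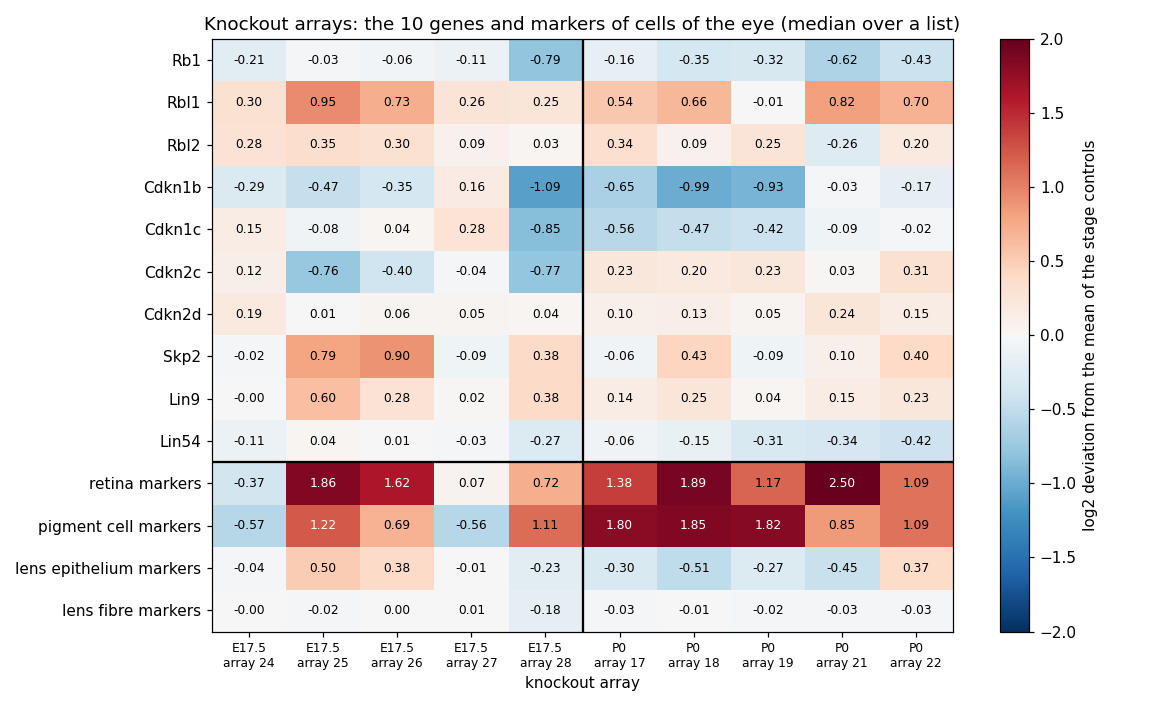
Log2 deviation of each knockout array (columns) from the mean of the controls of its stage for the 10 genes (upper rows) and, as the median over a list, for markers of retina, pigment cells, lens epithelium and lens fibres (lower rows); red is higher and blue lower, and colour saturates at 2. Array 28 at E17.5 and arrays 17, 18 and 19 at P0 stand out by low Cdkn1b on its brighter probe set, from -0.65 to -1.09. Their pigment cell markers are at 1.11 to 1.85. Array 25 at E17.5, with pigment cell markers at 1.22, has Cdkn1b at -0.47, and array 22 at P0, at 1.09, has Cdkn1b at -0.17.

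Other genes of the pathway were counted in lists of known members, to be read against the 39.6% of all tested genes called at P0 and the 2.89% at E17.5. The list of DREAM target genes, replication and mitosis genes silenced by that complex in resting cells, held 22 genes, of which 20 passed the filter. All 20 of these rose at P0 in knockout lenses (median 0.89), among them Pcna (1.03 ± 0.10, limma adjusted p = 0.000118), the clamp of the replication fork, and the helicase subunit Mcm5 (1.33 ± 0.14, limma adjusted p = 0.000171). At E17.5, 4 of the 20 rose (median 0.50), among them the mitotic kinase Aurka (0.83 ± 0.18, limma adjusted p = 0.0396). In control lenses all 20 fell between stages (median -1.10), where 37.4% of all tested genes were called. In knockout lenses 7 of 20 fell (median -0.60), where 14.6% of all were called, and the difference of the genotype effects between stages was called for 0 of the 20. With the retina covariate, 7 of 20 were called higher at P0 and the median was 0.81, and 0 were called at E17.5 (median 0.28), where 1032 and 81 of all tested genes were called. With the pigment cell covariate 3 of 20 were called at P0 (median 1.59), where 39 of all genes were, and 0 in each of the other 7 lists. At E17.5 that covariate gave 7 of 20 called (median 0.37), where 648 of all genes were called.

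Of 10 cyclins and kinases that act on pocket proteins, 9 rose at P0 and 0 fell (median 0.66), and 0 of 10 were called at E17.5 (median 0.30). They included Cdk2 (0.77 ± 0.08, limma adjusted p = 0.000118), the phosphatase Cdc25a that activates it (1.08 ± 0.12, limma adjusted p = 0.000171) and Cdk6 (0.74 ± 0.09, limma adjusted p = 0.000255), a kinase blocked by the INK4 proteins. Of the 10, 5 were called at P0 with the retina covariate, with a median of 0.62. With the pigment cell covariate 2 of the 10 were called at E17.5, both higher. Of the 3 tested genes named as other CDK inhibitors, Cdkn1a (p21) and Cdkn3 rose at P0 (1.86 ± 0.40 and 0.64 ± 0.16, limma adjusted p = 0.00422 and 0.00808). Cdkn3 is in neither the Cip/Kip nor the INK4 family. With the retina covariate 0 of the 3 were called at P0. At E17.5 Cdkn1a had 1.56 ± 0.46 (limma adjusted p = 0.0804).

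Of 8 genes of the SCF-Skp2 ligase and p27 turnover, 4 rose and 1 fell at P0, beside 20.2% of all tested genes higher and 19.4% lower, and 0 were called at E17.5, beside 2.89%. Cks1b, the cofactor with which Skp2 recognises p27, rose by 0.50 ± 0.10 (limma adjusted p = 0.00229), Cks2 by 1.34 ± 0.14 (limma adjusted p = 0.000166) and Skp1 by 0.23 ± 0.05 (limma adjusted p = 0.00546), and the RING subunit Rbx1 fell (-0.30 ± 0.10, limma adjusted p = 0.0307). Of these 8 genes, 2 were called with the retina covariate, both higher. Of 9 other partners of MuvB, DREAM and E2F-DP, Tfdp1 and Tfdp2, which pair with E2F factors, rose at P0 (0.27 ± 0.08 and 0.26 ± 0.08, limma adjusted p = 0.0228 and 0.0219). The repressive factor E2f5 and the kinase Dyrk1a, which promotes DREAM assembly, fell (-0.52 ± 0.10 and -0.30 ± 0.09, limma adjusted p = 0.00304 and 0.0251). These 4 of 9 are a share close to the 39.6% of all genes. At E17.5 Tfdp1 was the 1 called (0.40 ± 0.07, limma adjusted p = 0.0246). Among 6 E2F factors, which include the targeted E2f1, E2f2 and E2f3, E2f1 and E2f7 were higher and E2f6 lower at P0 (0.44 ± 0.09, 0.37 ± 0.11 and -0.30 ± 0.07, limma adjusted p = 0.00263, 0.0206 and 0.00615), and E2f1 was higher at E17.5 (0.60 ± 0.08, limma adjusted p = 0.00788). The position of the E2f1 probes relative to the deleted exons is unknown here, so its values do not show a rise of intact transcript. With the retina covariate 0 of these 9 and 0 of these 6 genes were called at P0.

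Of 9 corepressors and chromatin partners of pocket proteins, 2 rose (Rbbp7 and Rbbp5) and 2 fell (Arid4b and Sin3b) at P0, a share close to the 39.6% of all genes, and 0 were called at E17.5. Of 7 genes that regulate p27 or p57 in lens or other tissues, 4 fell at P0 and 0 rose: Maf, a regulator of fibre genes (-0.92 ± 0.12, limma adjusted p = 0.000398), Foxo1 (-0.71 ± 0.08, limma adjusted p = 0.000245), Gata3 (-0.58 ± 0.11, limma adjusted p = 0.00235) and Foxe3 (-0.78 ± 0.23, limma adjusted p = 0.0199). Foxe3 is also an epithelial marker, and the mean of the 8 lens epithelium markers was 0.44 lower at P0 (exact permutation p = 0.0476). Those markers did not move together, as 4 of the 8 were called higher and 4 lower. Pax6, for example, read 10.33 to 10.73 in knockout and 9.94 to 10.22 in control lenses at P0. At E17.5 Prox1, which is needed for fibre elongation, was higher (0.46 ± 0.10, limma adjusted p = 0.0398), and Foxo1 lower (-0.42 ± 0.10, limma adjusted p = 0.0463). Of the 7, 2 were called lower at P0 with the retina covariate.

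**Figure D5:**
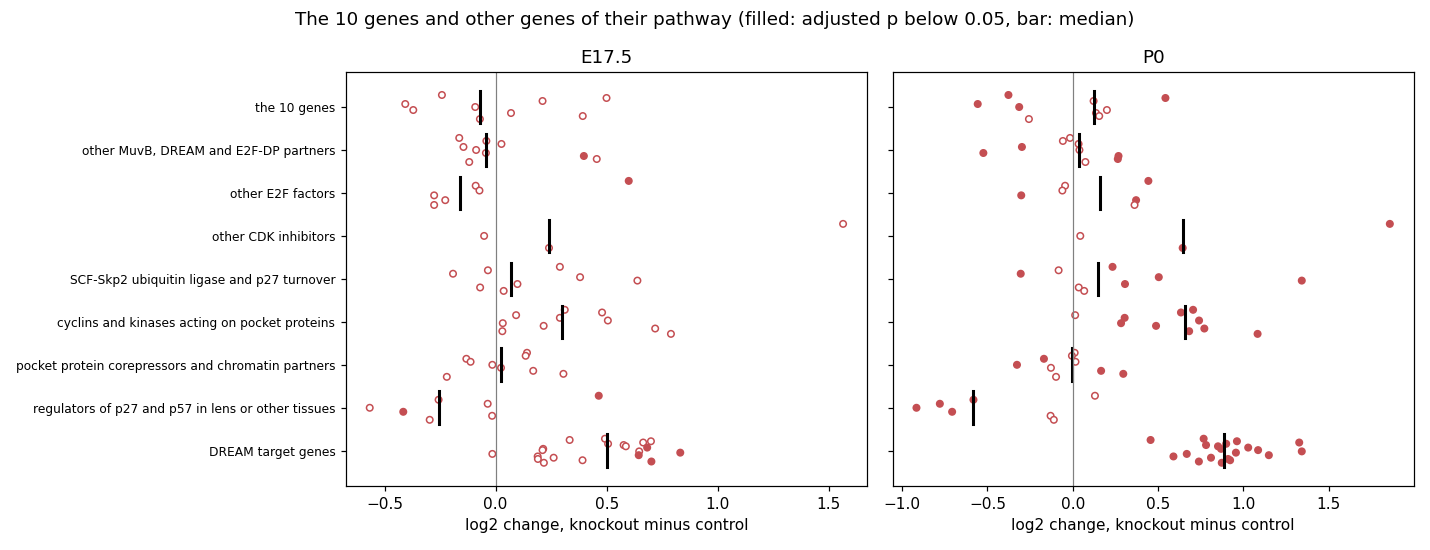
Log2 change, knockout minus control, at E17.5 and P0 (horizontal axes) of the 9 tested of the 10 genes and of 8 lists of other genes of their pathway (rows); points are tested genes, filled where the limma adjusted p was below 0.05, and bars are medians. All 20 DREAM target genes are filled and to the right at P0, while the 9 genes are spread on both sides of 0.

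By Pearson correlation over the 20 arrays, the tested genes most like each of the 9 were found; the arrays share stage and genotype, so these values describe likeness only. Rbl1 was most like Trip13 (0.946) and Atad5 (0.945). Skp2 was most like Hdac1 (0.961), a corepressor of pocket proteins, and Atad2 (0.959), and Cdkn2d most like Carnmt1 (0.941). Cdkn1b was most like Satb1 (0.946) and Cyfip2 (0.939), Cdkn1c like Rad23b (0.932), and Cdkn2c like Gas6 (0.906). The other values were 0.920 between Rb1 and Ciz1, 0.886 between Rbl2 and Pkp4, and 0.831 between Lin54 and Ncoa2. Among the 9 genes themselves, Rbl1, Skp2 and Cdkn2d, which fell between stages, had correlations of 0.815 to 0.855 with each other, Cdkn1b and Cdkn1c 0.813, and Rb1 and Lin54 0.809; Skp2 and Cdkn2c ran in opposite directions (-0.723).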

How the data were processed

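The deposited table held values for 45101 probe sets of Affymetrix mouse arrays, made by the authors from biotin-labelled cRNA (2 ug of RNA per array, per the labels). These are log2 values as deposited by the authors, a scale read from their range (1.72 to 15.0); the probe summary and normalization the authors applied are not given in the labels or headers. Values were used as deposited, and no column was left unused. The number of arrays limits the precision. No pair of arrays had more than 0.169% equal values.

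The array annotation gave 34945 probe sets 1 gene, 932 several and 9160 none, and 34741 were updated by Entrez identifier through RefSeq (GRCm38.p6). Each gene was represented by its probe set of highest mean, and tested where that lay above the array median (50th percentile) on at least 5 of 20 arrays. Probe set values were also tested one by one. The limma package (version 3.58.1, R 4.3.3; lmFit and eBayes, two-sided) was fitted on the 10 arrays of the groups compared (8 residual degrees of freedom), and on all 20 for the difference of effects. Benjamini-Hochberg adjustment ran over all 11859 tested genes. Errors of changes are SEs, and errors of means SDs. The procedure was checked on data with known answers, where limma, which assumes equal spread, made more false calls than the nominal share in each comparison with knockout arrays; calls near the threshold are less certain there. Exact permutation tests are two-sided.

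The genes named are the 10 genes with all probe sets, up to 3 risen and 3 fallen genes per pathway list by smallest adjusted p, or 2 as values where none passed, and the 3 genes most correlated with each; Foxe3 was added after its values were seen. The genes and lists were chosen with earlier results of these data known. Alternatives were other normalizations, filters and probe set rules, moderation with trend, marker covariates and arrays left out; the pigment cell covariate was added after seeing the data.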

Additional observations from a re-analysis of the deposited data

Results flagged for a closer look

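In 6 of 40 groups of 5 arrays (10 genes in 4 groups), 1 array stood apart from the others by more than Dixon's 95% threshold of 0.71 of the group's range; chance flags about 1 in 20 groups. Rb1 read 7.32 on knockout E17.5 array 28, while the other 4 arrays read 7.90 to 8.08. Cdkn1c read 12.34 on control P0 array 1, below the 12.55 to 12.63 of the others. Cdkn2d stood high on control E17.5 array 13 (8.42, others 8.17 to 8.23) and on knockout E17.5 array 24 (8.44, others 8.25 to 8.30). Lin9 read 4.49 on control E17.5 array 10 (others 4.71 to 4.74), and Lin54 6.69 on control E17.5 array 15 (others 6.56 to 6.59). Array 28 also had the lowest Cdkn1b, Cdkn1c and lens fibre markers of its group, and the highest vessel endothelium, erythroid and macrophage markers. The cause was not tested.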

How the results depend on the processing

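Over 1064 recomputed changes of the 9 genes under the alternatives, 965 kept their direction and their side of the threshold, 39 lost a call, 27 gained one, 31 turned sign without being called, and 2 called changes reversed: Cdkn1b and Cdkn1c at P0 with the pigment cell covariate (0.68 and 0.37, neither called). With that covariate 0 of the 9 genes were called at P0 and 1 for the difference of effects (Cdkn2c), and with the retina covariate 1 at P0 (Cdkn2c); over all genes 39 and 1032 were called at P0, against 4700 without a covariate. Without knockout E17.5 arrays 24 and 27, 4 of the 9 genes were called at E17.5 and 1 for the difference (Cdkn2c); without arrays 25 and 26, 0 were called between stages in knockout lenses. The stricter filter, which tests fewer genes, left 2 called between stages in controls. Leaving out 1 array in turn gave 2 to 6 of the 9 genes called at P0, 4 to 5 between stages in control and 2 to 5 in knockout lenses, and 0 at E17.5 and for the difference; the cause was not tested. Over all genes the count at E17.5, 343 in the main setting, was 580 after quantile normalization, 197 after median centring, 1541 in the fit of all 20 arrays, 81 with the retina covariate, 648 with the pigment cell covariate, 2953 without arrays 24 and 27, 43 without 25 and 26, and 49 to 1129 without 1 array. Between stages in knockout lenses 1728 genes became 3940 in the fit of all arrays, 2644 without the filter, 884 with the stricter one, 68 without arrays 25 and 26 and 440 to 2716 without 1 array; in controls 4431 became 2046 in the fit of all arrays. For the difference, 21 became 0 with array weights, 1 and 68 with the retina and pigment cell covariates, 45 and 146 without those pairs, and 0 to 321 without 1 array. No paired analysis was possible because the groups share no replicate numbers.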

Other observations

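With the mean over the probe sets of each gene, Rbl2, Skp2 and Lin54 were called at P0 (0.34, 0.24 and -0.24, limma adjusted p = 0.0160, 0.0402 and 0.0120), which they were not on their brightest probe sets. Cdkn1b and Cdkn1c kept their calls, and Rb1 was not called. Rbl1, averaged with its dim probe sets, was below the filter and was not tested in this setting.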
